A study of Mus musculus with 9 samples.

Results

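T cells of the mesenteric lymph nodes, which drain the gut, were compared with T cells of the peripheral lymph nodes, using the 4 node samples of a series of 9. These were 1 mesenteric CD4, 1 mesenteric CD8, 1 peripheral CD4 and 1 peripheral CD8 sample, so that each subset gave 1 mesenteric and peripheral pair. A probe panel of 770 immune genes had been read in each sample, and the 396 genes above the lower limit of the table in at least 2 of the 4 samples were kept. The gut samples stayed out of the comparison, and 4 of them, the CD4 and CD8 samples of epithelium and lamina propria, are given only as values beside it. An intraepithelial CD4CD8 sample was not used here.

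The mice were on the B10.RIII background, either wild type or Rag2-/- IRBP-/- R161H. R161H is a line whose T cells carry a transgenic receptor for a peptide of the retinal protein IRBP. The protocols describe immunization with the IRBP peptide in complete Freund's adjuvant, which induces autoimmune uveitis. Wild-type mice could also receive oral ampicillin, metronidazole, neomycin, vancomycin and gentamicin, short-term or long-term, before it. All 9 samples carry the same protocol text, so the genotype, antibiotic arm and immunization state of a node sample are not given. Neither are the number of mice per sample, whether mice were pooled, or which nodes counted as peripheral.

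Lymphocytes enter lymph nodes from the blood with the help of the chemokine receptor CCR7, and the node in which a T cell is activated shapes where it later goes. Mesenteric nodes receive antigen and vitamin A products from the gut, and T cells primed there are known to gain gut homing receptors such as CCR9. Peripheral nodes drain skin and other sites. Interferon induces a shared set of antiviral genes in lymphocytes, and T cell receptor signals induce early transcription factors such as Fos, Jun and Egr1 together with feedback inhibitors such as Tnfaip3.

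Values are log2 normalized counts, with a floor of 4.32 (20 normalized counts) at which lower values were listed. Above the floor lay 367 to 383 genes per node sample, and the lowest value listed above it was 4.34 to 4.38, so the limit was nearly the same in the 4 samples. The mean of 19 housekeeping genes was 7.90 to 7.93. The lineage genes followed the labels. Cd4 was 9.62 and 9.64 in mesenteric and peripheral CD4 and at the floor in both CD8 samples. Cd8a was 10.26 and 10.09 in mesenteric and peripheral CD8 and at the floor in both CD4 samples, and Cd8b1 was 9.91 and 9.65 in the CD8 samples and at the floor in both CD4 samples.

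The 2 nodes were close to each other. Across the 396 genes the median size of the mesenteric minus peripheral difference (mean of both pairs) was 0.175 log2, against 0.322 for the CD8 minus CD4 difference in the same 4 samples. Only 9 genes were apart by 1 log2 or more between nodes, and 72 were between subsets. The differences ranged from -1.33 for Abca1 to 1.93 for H2-Ea-ps. Across genes, the difference in the CD4 pair and that in the CD8 pair had a Pearson r of 0.656 (396 genes, which are not independent replicates; 0.585 over 390 genes without the class II list). In the limma fit of the 4 samples with the subset as a block, 0 of 396 genes were called in either direction (0% background; smallest adjusted p = 0.13), while 82 (20.7%) had an unadjusted p under 0.05. The fit has 1 residual degree of freedom, so its residual spread is the gap between the CD4 and the CD8 pair. The fit combines that gap with a prior drawn from all genes tested. An exact sign-flip test of 2 pairs cannot give a p below 0.5. The count depended on scaling: it was 33 (15 higher and 18 lower in mesenteric) with each sample centred on its median and 68 (30 and 38) with centring on the housekeeping genes, and all 33 were among the 68. Without a called gene in the deposited scaling, genes are described by size. A difference of at least 0.5 log2 in the same direction in both pairs was met by 16 genes higher in mesenteric samples (4.04% of those tested) and 12 lower (3.03%), 28 in all (7.07%). Both mesenteric samples lay above both peripheral ones in 49 genes (12.4%) and below both in 62 (15.7%).

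**Figure D1:**
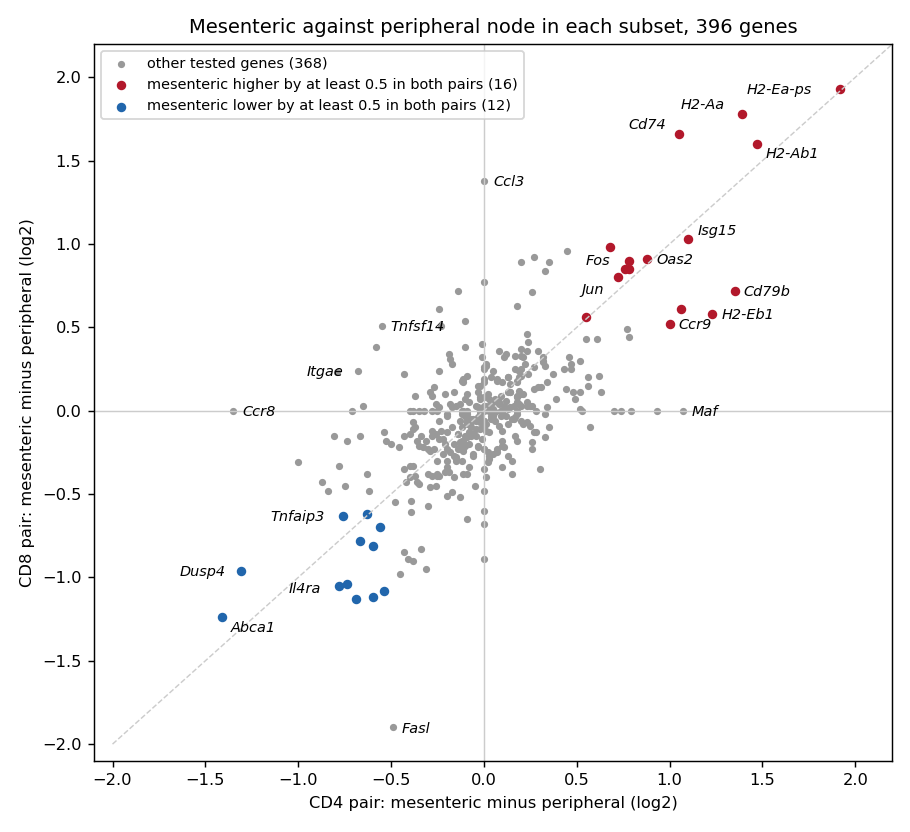
Mesenteric minus peripheral difference (log2) of 396 genes in the CD4 pair (horizontal axis) and in the CD8 pair (vertical axis), each point 1 gene. Red and blue points are the 16 and 12 genes apart by at least 0.5 in the same direction in both pairs; H2-Ea-ps, H2-Aa and H2-Ab1 lie farthest to the upper right and Abca1 farthest to the lower left of these.

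Sequences before the start of 4 genes are shown, since 2 of the groups that stood out, interferon-induced genes and class II genes, are known for short promoter elements. They were taken from RefSeq (GRCm38.p6) as the 250 bases before the annotated gene start, 5′ to 3′ on the gene's strand. In the first 2, capitals mark GAAA, any 2 bases and GAAA again on either strand, the core shared by interferon-stimulated response elements (matches may overlap). In the other 2, capitals mark ATTGG on either strand, the core of the Y box of class II promoters. Isg15 lies at chr4:156200819-156201068 (minus strand), Ifit3 at chr19:34583279-34583528 (plus strand), H2-Aa at chr17:34287824-34288073 (minus strand) and H2-Eb1 at chr17:34305617-34305866 (plus strand).
Isg15: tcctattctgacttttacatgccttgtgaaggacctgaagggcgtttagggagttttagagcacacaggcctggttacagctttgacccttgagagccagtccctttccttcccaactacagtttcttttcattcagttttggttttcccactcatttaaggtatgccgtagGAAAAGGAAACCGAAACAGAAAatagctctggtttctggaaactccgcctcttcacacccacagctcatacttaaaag
Ifit3: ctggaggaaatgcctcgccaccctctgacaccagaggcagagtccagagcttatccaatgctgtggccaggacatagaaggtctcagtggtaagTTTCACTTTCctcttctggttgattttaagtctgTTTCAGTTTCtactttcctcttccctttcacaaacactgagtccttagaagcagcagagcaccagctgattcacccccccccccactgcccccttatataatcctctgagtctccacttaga
H2-Aa: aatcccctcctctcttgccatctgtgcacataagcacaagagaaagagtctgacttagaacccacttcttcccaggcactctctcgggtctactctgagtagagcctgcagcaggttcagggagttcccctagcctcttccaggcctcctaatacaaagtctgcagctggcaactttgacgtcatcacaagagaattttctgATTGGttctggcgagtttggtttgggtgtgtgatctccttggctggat
H2-Eb1: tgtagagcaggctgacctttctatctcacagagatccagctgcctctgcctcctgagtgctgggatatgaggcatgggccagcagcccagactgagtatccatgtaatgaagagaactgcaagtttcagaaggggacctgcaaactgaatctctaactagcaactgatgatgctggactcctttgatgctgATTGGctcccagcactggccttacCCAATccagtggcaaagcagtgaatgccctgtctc

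Isg15 held 3 overlapping matches on its own strand, starting 78, 72 and 66 bases before the gene start, and Ifit3 held 2 on the opposite strand. H2-Aa held 1 and H2-Eb1 held 2 Y box cores. The GAAA pair occurred in 2.98% of all 32851 promoter windows of this length and in 6 of the 23 tested interferon-list genes that had a window. ATTGG is short and occurred in 33.8% of all windows, and in 3 of 3 tested class II list genes with one. A match describes letters only and does not show that a factor binds there.

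**Figure D2:**
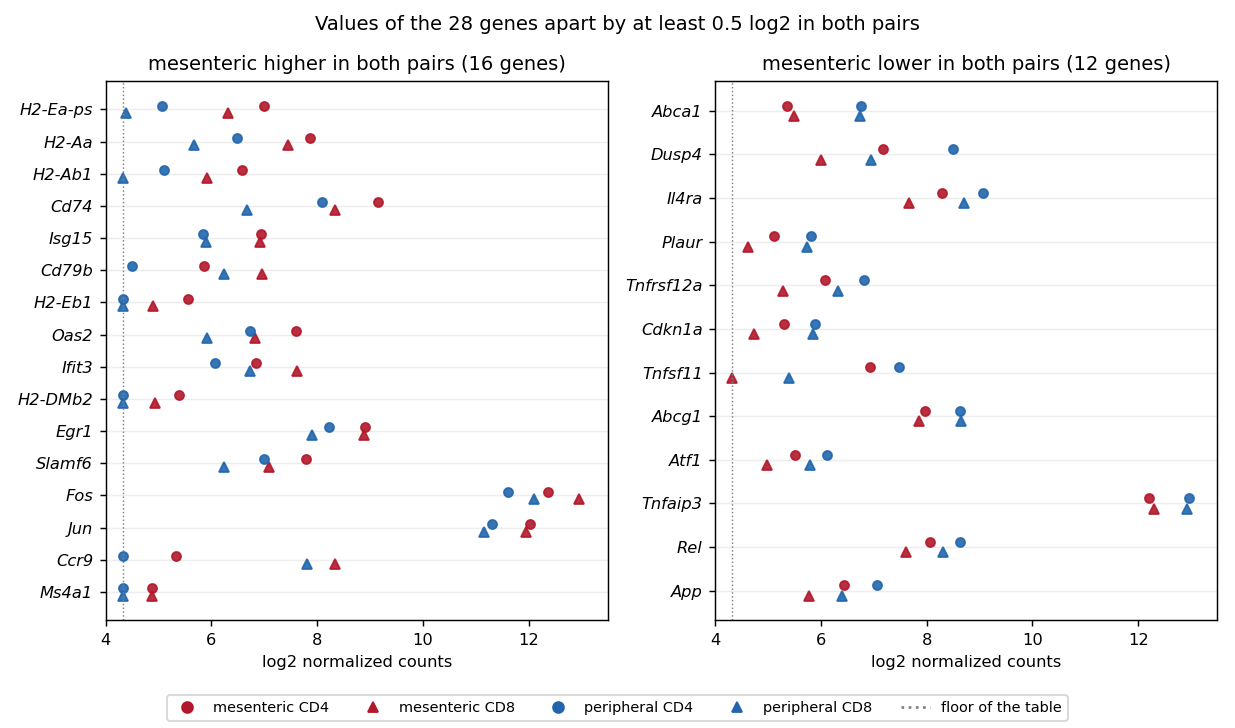
Log2 normalized counts (horizontal axis) of the 16 genes higher (left) and 12 lower (right) in mesenteric samples by at least 0.5 log2 in both pairs. Each mark is 1 sample (circle CD4, triangle CD8, red mesenteric, blue peripheral), and the dotted line is the floor at 4.32, where both peripheral samples lie for H2-Eb1, H2-DMb2 and Ms4a1.

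Genes of the class II antigen presentation pathway had the largest differences in favour of mesenteric samples. Class II molecules present peptides to CD4 T cells and are made mainly by B cells, dendritic cells and macrophages. Of 13 measured genes of the class II and antigen-presenting cell list, 6 were above the floor in at least 2 node samples, and all of these 6 were higher in mesenteric in both pairs by at least 0.5 log2 (background 4.04%; median difference 1.445, against -0.03 over all genes). Of these 6, H2-Eb1 and H2-DMb2 passed the filter through the mesenteric samples alone, and without genes at the floor in any node sample 3 remained. H2-Dma was missed by a spelling difference and is not in the list's counts, median or sums. This class II pathway gene did not follow the 6. It was 6.83 and 7.27 in the mesenteric CD4 and CD8 samples and 6.92 and 7.06 in the peripheral ones (-0.09 and 0.21). CD209e, missed in the same way, was at the floor in all 4. H2-Ea-ps, the alpha chain gene of the E class II molecule that some mouse strains lack, was 6.99 and 6.31 in the mesenteric CD4 and CD8 samples and 5.07 and 4.38 in the peripheral ones. That is 1.92 in the CD4 pair and 1.93 in the CD8 pair (mean 1.93 ± 0.09, SE of the fit; 3.8-fold; limma adjusted p = 0.13). Both mesenteric samples lay above both peripheral ones.

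H2-Aa, the alpha chain of the A class II molecule, was 7.87 and 7.45 in the mesenteric CD4 and CD8 samples and 6.48 and 5.67 in the peripheral ones (3-fold, log2 difference 1.59 ± 0.14, adjusted p = 0.135). H2-Ab1, its beta chain, was 6.58 and 5.92 against 5.11 and the floor, and with that last value taken at the floor the fit gave 1.54 ± 0.10 (adjusted p = 0.13). Cd74, the invariant chain that guides class II through the cell, was 9.15 and 8.33 against 8.10 and 6.67 (1.36 ± 0.20, adjusted p = 0.197). None of these 3 genes overlapped between the nodes, and in each node the CD4 sample was the higher one. H2-DMb2, a chain of the peptide-loading factor DM, was 5.38 and 4.93 in the mesenteric CD4 and CD8 samples and at the floor in both peripheral samples, at least 1.75-fold higher. H2-Eb1 was 5.55 and 4.90 and likewise at the floor in both peripheral samples, at least 1.84-fold higher. These bounds are taken against the lowest value listed above the floor in the peripheral samples. The other DM genes did not show the difference of H2-DMb2. H2-Dma overlapped between the nodes (-0.09 in the CD4 and 0.21 in the CD8 pair), and H2-DMb1 was at the floor in all 4 samples.

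Of the 4 B cell markers tested, 3 were higher in mesenteric samples in both pairs (28.8% of all genes; median 0.448), and 1 of these, Ms4a1, passed the filter through the mesenteric samples alone. Cd79b, a signalling chain of the B cell receptor, was 5.85 and 6.95 in the mesenteric CD4 and CD8 samples and 4.50 and 6.23 in the peripheral ones (1.04 ± 0.22, adjusted p = 0.21), and the peripheral CD8 value lay above the mesenteric CD4 one. Ms4a1 (CD20), a B cell surface protein, was 4.87 and 4.88 in the mesenteric samples and at the floor in both peripheral ones, at least 1.44-fold higher. Pou2f2, a factor of B cells that T cells also express, was 6.01 and 5.52 against 5.58 and 5.27. Of 19 measured B cell markers 15 were at the floor in all 4 samples, among them the defining genes Cd79a, Pax5 and Cd22. The summed level of B cell markers above the floor was 184 and 199 normalized counts in the mesenteric CD4 and CD8 samples and 102 and 114 in the peripheral ones. It covered 4 and 3 markers against 3 and 2. Members at the floor in a sample entered none of the sums given here, so sums of a list can cover different genes. Of 32 myeloid markers 28 were at the floor throughout, including Csf1r, Cd14 and Itgam, and the summed level was 79.2 and 47.6 normalized counts in mesenteric and 64.9 and 46.0 in the peripheral ones. The dendritic cell genes Itgax, Ccl17, Ccl22 and Cd207 and the class II transactivator Ciita were also at the floor in all 4. The summed class II list itself was 1113 and 697 against 432 and 174, over 6 and 6 members above the floor against 4 and 3. Of 28 epithelial and stromal markers 24 were at the floor throughout, and their sum, mostly of Nt5e, was 311 and 397 against 181 and 336. The part of other cells in the class II difference was not tested. In bulk samples, fewer cells of a type and less RNA per cell cannot be told apart.

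Most genes of the interferon list were higher in mesenteric samples. Of 29 tested members of the interferon list, 23 were higher in mesenteric in both pairs and 1, Ifnar1, was lower in both, against 28.8% and 36.9% of all genes. The interferon list's median difference was 0.28, with 0.24 in the CD4 pair and 0.25 in the CD8 pair, and 3 members met the size rule (background 4.04%). Isg15, a ubiquitin-like antiviral protein, was 6.94 and 6.92 in the mesenteric CD4 and CD8 samples and 5.84 and 5.89 in the peripheral ones (2.09-fold, log2 difference 1.07 ± 0.08, adjusted p = 0.13). The 2 samples of a node agreed within 0.05 log2, and the nodes did not overlap.

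Oas2, which senses double-stranded RNA, was 7.60 and 6.82 in the mesenteric CD4 and CD8 samples and 6.72 and 5.91 in the peripheral ones (0.90 ± 0.07, adjusted p = 0.13). Ifit3, which binds into a complex against viral RNA, was 6.85 and 7.62 against 6.07 and 6.72 (0.84 ± 0.08, adjusted p = 0.138). Both were apart by a similar amount in CD4 and CD8. Usp18, which removes ISG15 from proteins, and Ifit1 were farther apart in the CD8 pair (0.96 and 0.89) than in the CD4 pair (0.45 and 0.35). Oasl1 was likewise apart by 0.92 in the CD8 pair and 0.27 in the CD4 pair. The transcription factors of the pathway differed less: Irf7 was apart by 0.32 in the CD4 and 0.29 in the CD8 pair, and Stat2 by 0.47 and 0.25. Of the receptor chains, Ifnar2 was higher in mesenteric (0.24 and 0.41) and Ifnar1 lower (-0.10 and -0.21). Irf1, a target shared with interferon gamma, was near equal (-0.02 and 0.08). Of 11 tested class I genes, which interferon also induces, Tap1 and H2-Q10 were higher and 3 lower in both pairs (28.8% and 36.9% of all genes). The class I list's median was -0.005.

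**Figure D3:**
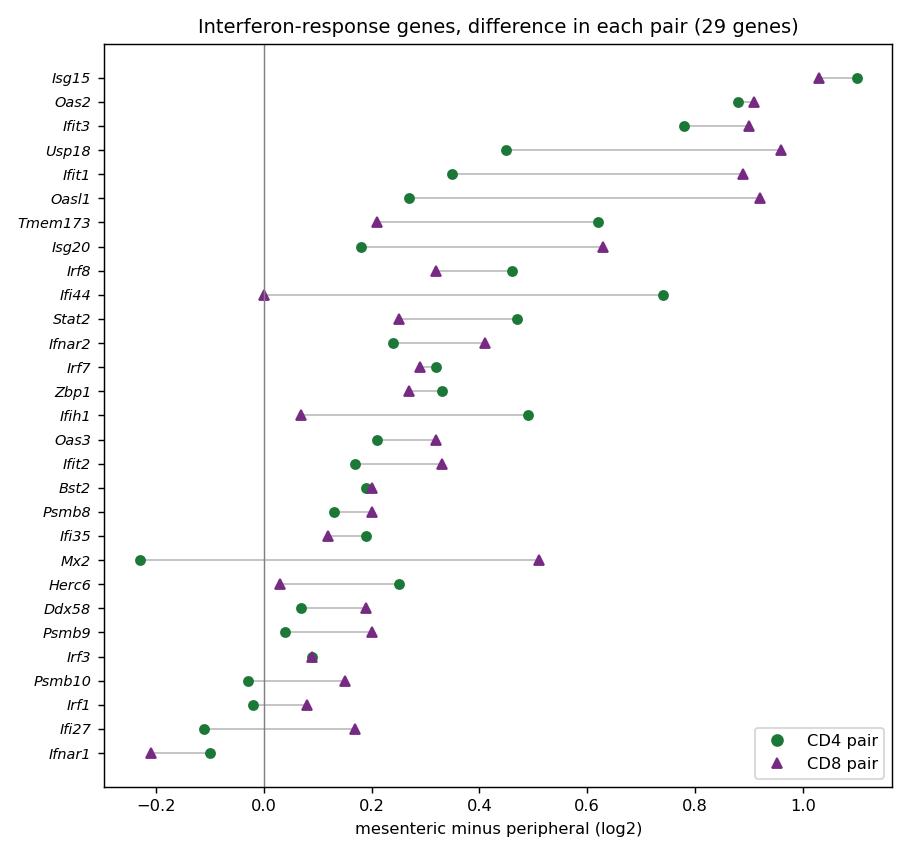
Mesenteric minus peripheral difference (log2, horizontal axis) of the 29 tested interferon-list genes, with 1 point for the CD4 pair (circle) and 1 for the CD8 pair (triangle) joined by a line. Isg15, Oas2 and Ifit3 are apart by at least 0.5 in both pairs, and Ifnar1 is the gene below 0 in both.

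The immediate-early and NF-kB list was split. Of 24 tested members, 7 were higher and 12 lower in mesenteric in both pairs (28.8% and 36.9% of all genes). The size rule was met by 3 in each direction (4.04% and 3.03% of all genes). Fos, a subunit of the AP-1 factor, was 12.37 and 12.95 in the mesenteric CD4 and CD8 samples and 11.61 and 12.10 in the peripheral ones (0.81 ± 0.05, adjusted p = 0.13). Jun, its partner, was 12.02 and 11.95 against 11.30 and 11.15 (0.76 ± 0.05, adjusted p = 0.13). Egr1, an early zinc finger factor, was 8.91 and 8.89 against 8.23 and 7.91 (0.83 ± 0.11, adjusted p = 0.179). For these 3 genes both mesenteric samples were above both peripheral samples. Egr3, on the same list, did not follow (0.10 in the CD4 and -0.21 in the CD8 pair), and Egr2 was at the floor in all 4 samples.

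Other members of the list, among them Tnfaip3, Rel and Dusp4, were lower in mesenteric samples. Tnfaip3 (A20), a ubiquitin-editing inhibitor of NF-kB, was 12.21 and 12.30 in the mesenteric CD4 and CD8 samples and 12.97 and 12.93 in the peripheral ones (-0.70 ± 0.06, adjusted p = 0.13). Rel, the c-Rel subunit of T cell activation, was 8.07 and 7.61 against 8.63 and 8.31 (-0.63 ± 0.07, adjusted p = 0.159). Dusp4, a phosphatase of MAP kinases, was 7.18 and 5.99 against 8.49 and 6.95 (-1.14 ± 0.13, adjusted p = 0.159). Tnfaip3 and Rel did not overlap between nodes, whereas mesenteric CD4 was above peripheral CD8 for Dusp4. Relb, Nfkb2 and Rela were lower in mesenteric by 0.21 to 0.27 on average (-0.27, -0.25 and -0.21). Nfkb1 was near equal (0.02 in the CD4 and 0.10 in the CD8 pair), and Nfkbia, an NF-kB inhibitor, was equal in CD4 (-0.01) and higher in mesenteric CD8 (0.40).

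Abca1 had the largest difference among genes lower in mesenteric samples, and Abcg1, which also exports sterols, met the size rule in the same direction. Abca1, which exports cholesterol to lipid-poor apolipoproteins, was 5.35 and 5.49 in the mesenteric CD4 and CD8 samples and 6.76 and 6.73 in the peripheral ones (2.51-fold lower, log2 difference -1.33 ± 0.10, adjusted p = 0.13). Abcg1, which exports it to lipoprotein particles, was 7.96 and 7.86 against 8.63 and 8.64 (-0.73 ± 0.06, adjusted p = 0.13). Neither overlapped between nodes, and CD4 and CD8 samples of a node were within 0.14 log2 of each other. Both are known targets of the LXR sterol receptors. Abcb1a, a drug efflux transporter of the same superfamily, was higher in mesenteric (0.56 in the CD4 and 0.20 in the CD8 pair).

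Several receptors and stress genes were also lower in mesenteric samples by the size rule. Il4ra, the IL-4 and IL-13 receptor chain, was 8.28 and 7.66 in the mesenteric CD4 and CD8 samples and 9.06 and 8.71 in the peripheral ones (-0.92 ± 0.10, adjusted p = 0.159). Tnfrsf12a, the receptor of TWEAK, was 6.07 and 5.28 against 6.81 and 6.32 (-0.89 ± 0.13, adjusted p = 0.197). Plaur, the urokinase receptor, was 5.11 and 4.61 against 5.80 and 5.74, and Cdkn1a (p21), a cell cycle inhibitor, was 5.29 and 4.73 against 5.89 and 5.85. All 4 lay lower in both mesenteric samples than in both peripheral ones. Tnfsf11 (RANKL) was 6.93 in mesenteric and 7.47 in peripheral CD4, and at the floor in mesenteric and 5.40 in peripheral CD8. Atf1, a CREB family factor, and App, the amyloid precursor protein, were lower by 0.71 and 0.63 on average (-0.71 and -0.63; adjusted p = 0.197 and 0.159). Slamf6, a SLAM family receptor of T cells, was among the higher genes, with 7.78 and 7.09 against 7.0 and 6.24 (0.82 ± 0.07, adjusted p = 0.13). A further 8 genes lay just short, with a smaller pair difference of 0.45 to 0.49. They were Cd38 and Usp18 on the higher side, and Fasl, Gpr183, Vim, Rora, Bcl2l1 and Bcl10 on the lower.

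Homing receptors gave a small number of differences. Ccr9, which responds to the small intestinal chemokine CCL25, was 5.32 in mesenteric CD4 and at the floor in peripheral CD4, and 8.33 and 7.81 in mesenteric and peripheral CD8. With peripheral CD4 taken at the floor, the pairs were apart by 1.00 and 0.52 (0.76 ± 0.17, adjusted p = 0.21). It was the 1 of 8 tested genes of the gut homing and residence list to meet the size rule (background 4.04%). Cd38, an ectoenzyme, was the other member higher in both pairs (5.27 and 5.21 against 4.50 and 4.72; 28.8% of all genes were higher in both). Itga4, the alpha chain of the gut homing integrin, was apart by 0.21 in the CD4 and -0.08 in the CD8 pair. Itgae, the CD103 chain of mucosal T cells, was 6.91 in mesenteric and 7.59 in peripheral CD4, but 8.50 and 8.26 in CD8. Cd69, an early activation molecule that also retains T cells in tissue, was 11.17 and 11.35 in CD4 and 12.28 and 11.97 in CD8.

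Of 5 tested naive and lymph node homing genes, 2 were higher and 3 lower in mesenteric in both pairs (28.8% and 36.9% of all genes). None met the size rule, which 4.04% of all genes met as higher and 3.03% as lower. Ccr7 was 10.91 and 11.24 in the mesenteric CD4 and CD8 samples and 11.34 and 11.59 in the peripheral ones (-0.39 ± 0.05, adjusted p = 0.159). Both mesenteric samples lay below both peripheral ones. Tcf7, a factor of naive and memory T cells, and Il7r, the IL-7 receptor, differed by 0.13 and -0.17. Itgb1, the beta-1 integrin chain raised on memory cells, was lower in mesenteric (7.77 and 9.11 against 8.64 and 9.54), as was Amica1, a junction molecule (4.71 and 7.46 against 5.71 and 7.77). Itgb2, the beta chain of LFA-1, and its ligand Icam2 were higher in both mesenteric samples by 0.30 and 0.27. Cxcr3, a receptor of type 1 T cells, was apart by 0.34 and 0.17, and Ccr2, a receptor of inflammatory T cells, by -0.78 and -0.33. The CD8 difference of Ccr2 is taken from the floor in mesenteric CD8, against 4.65 in peripheral CD8.

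Of 13 tested members of the regulatory T cell list 7 were lower and 1 higher in both pairs (36.9% and 28.8% of all genes), with a median of -0.235 and none past the size rule. Foxp3, the lineage factor, was 7.38 in mesenteric and 7.73 in peripheral CD4 and at the floor in both CD8 samples. Ikzf2 (Helios) was 6.91 and 7.62 in CD4, Tnfrsf4 (OX40) 6.79 and 7.58, and Il2ra (CD25) 8.17 and 8.45, in the same order. Tnfrsf4 was above the floor in all 4 samples, and its CD8 pair went the other way, with mesenteric higher. Ctla4, an inhibitory receptor, was 9.36 and 7.14 in the mesenteric CD4 and CD8 samples and 9.66 and 7.71 in the peripheral ones (-0.44 ± 0.10, adjusted p = 0.21). Tigit, another inhibitory receptor, was 5.91 and 5.12 against 6.29 and 6.02 (-0.64 ± 0.19, adjusted p = 0.238). Nt5e (CD73), which makes adenosine, was the tested member higher in both pairs, with 8.28 and 8.11 against 7.50 and 7.67 (0.61 ± 0.12, adjusted p = 0.21). The transforming growth factor genes Tgfb1, Tgfbr1 and Tgfbr2 were lower in both pairs by -0.25, -0.32 and -0.18 on average. Lag3 and Il10, also on this list, were outside the tested genes, with values above the floor in mesenteric CD4 alone (6.42 and 5.11). Ebi3, likewise listed and not tested, was above it in peripheral CD4 alone (4.78).

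Of 14 tested costimulation and TNF superfamily genes, 9 were lower and 1 higher in both pairs (36.9% and 28.8% of all genes), with a median of -0.11. Icos, a costimulator kept in the follicular helper list, was 8.96 and 7.14 in the mesenteric CD4 and CD8 samples and 9.39 and 7.99 in the peripheral ones (-0.64 ± 0.14, adjusted p = 0.21). Fasl, a death receptor ligand, was 4.58 and 4.73 against 5.07 and 6.63, so the CD8 pair was apart by -1.90 and the CD4 pair by -0.49. Among the receptors, Tnfrsf1a and Tnfrsf1b, which bind TNF, were lower in both pairs by -0.47 and -0.28, and Tnfrsf10b, which binds TRAIL, by -0.65. Cd83, an activation molecule, was the member higher in both (0.20 and 0.89). Cd28, the main costimulatory receptor, kept in the T cell receptor list, was 6.82 and 6.49 against 7.17 and 6.93 (-0.40 ± 0.07, adjusted p = 0.21).

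Of 17 tested genes of the T cell receptor list, 9 were lower and 0 higher in both pairs (36.9% and 28.8% of all genes), with a median of -0.075 and all between -0.40 and 0.13. With centring on medians 8 were lower and 2 higher, and with housekeeping centring 9 and 3. These 3 include Cd8a and Cd8b1, which were at the floor in both CD4 samples, where the centring only shifted the floor values apart. Cd3e was 10.28 and 10.26 in mesenteric and 10.35 and 10.36 in peripheral CD4 and CD8, and Lck, the kinase that starts receptor signalling, was 11.28 and 11.19 against 11.19 and 11.22. In the common gamma chain and Jak-Stat list, Jak3, the kinase of these receptors, was higher in mesenteric (8.05 and 7.87 against 7.50 and 7.44; 0.49 ± 0.07, adjusted p = 0.197) and Il2rb, the shared IL-2 and IL-15 receptor chain, lower (-0.21 and -0.37). In the Th1 list, Stat4, which relays IL-12, was higher by 0.52 and 0.30, and Ifngr1, the interferon gamma receptor, lower by -0.29 and -0.46.

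**Figure D4:**
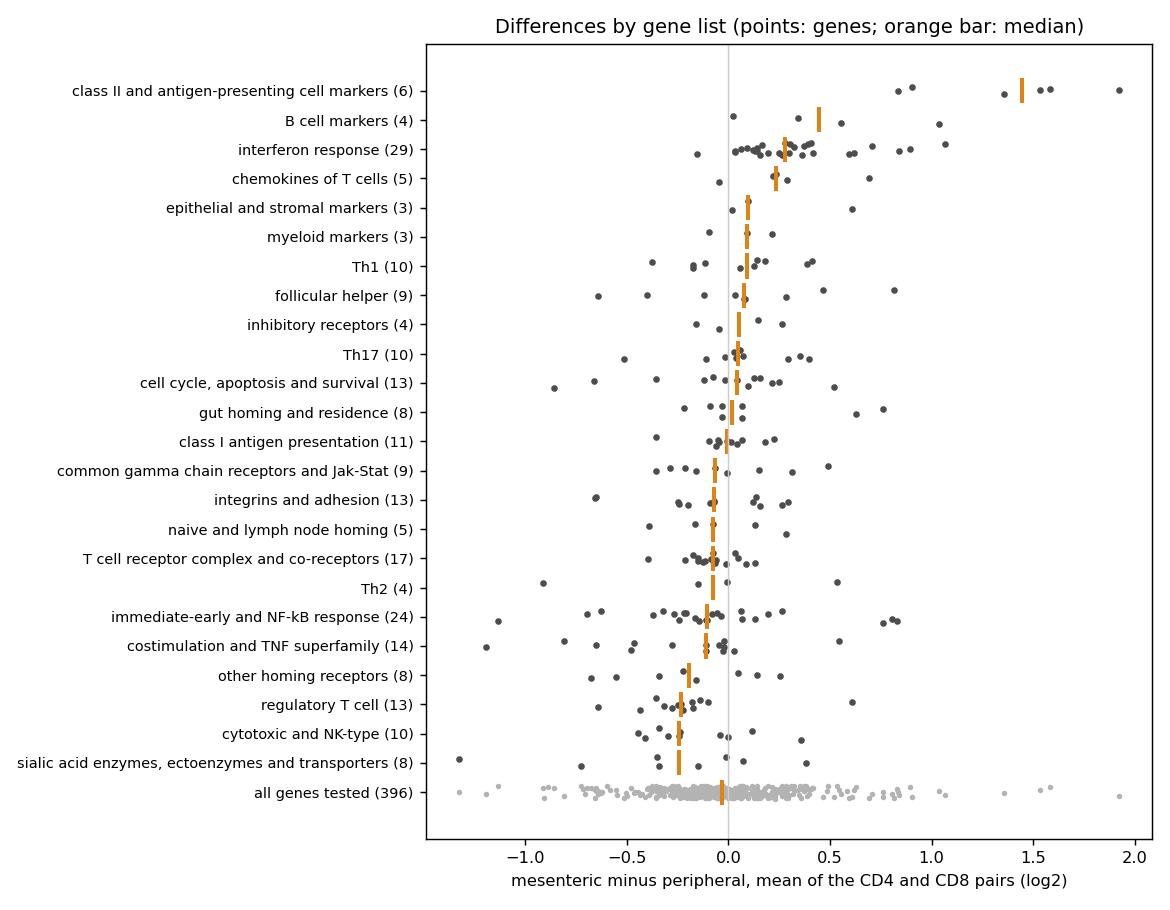
Mesenteric minus peripheral difference (mean of both pairs, log2, horizontal axis) of the tested genes of 24 lists, ordered by their median (orange bar), with the number of tested genes in brackets and all 396 genes in the bottom row. The class II, B cell and interferon lists have the highest medians (1.445, 0.448 and 0.28). H2-Dma is not in the class II row.

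Some genes differed in 1 subset and lay at the floor in the other. Of 10 tested Th17 genes 2 were higher and 2 lower in both pairs, and of 4 tested Th2 genes 0 and 2 (28.8% and 36.9% of all genes). Il22, a cytokine that acts on epithelium, was 5.15 in mesenteric and 4.45 in peripheral CD4. In the same order, Maf, a factor of IL-10 and IL-21 producing cells, was 5.85 and 4.78, and Pdcd1 (PD-1), an inhibitory receptor, was 5.53 and 4.60. All 3 were at the floor in both CD8 samples. Outside the 396 genes, 28 were above the floor in only 1 of the 4 samples, and each sample had such genes. Those named here were singled out after their values were seen. Lag3 (6.42), Cxcr5 (5.55), Il21 (5.32), Il10 (5.11) and Il1r1 (5.01) were above the floor in mesenteric CD4 alone. Il1rl1, the IL-33 receptor, was above it in peripheral CD4 alone (6.26), as were Lgals3 (5.45), Ebi3 (4.78) and Il2 (4.78). The others of the 28 were at 4.83 or lower. Ccr8, a receptor of skin and regulatory T cells, was 4.83 in mesenteric and 6.18 in peripheral CD4 and at the floor in CD8. Il17a, Il17f, Il4, Il5 and Il13 were at the floor in all 4 node samples.

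In the CD8 pair, Ccl3, a chemokine of activated T cells, was 6.07 in mesenteric and 4.69 in peripheral CD8, and Tbx21 (T-bet), a factor of effector cells, was 5.52 and 4.75. Both were at the floor in the CD4 samples. NK-type receptors went the other way: Klrc1 and Klrc2, chains of NKG2 receptors, were 8.12 and 6.20 in mesenteric and 8.72 and 6.88 in peripheral CD8, and Klrk1 (NKG2D) was 7.68 and 8.16. Klra6, a Ly49 receptor, was 4.36 and 5.25. These 4 genes were also at the floor in the CD4 samples, and Klrd1 (CD94), the partner chain of the NKG2 receptors, was lower in mesenteric in both pairs (-0.67 and -0.15). Perforin (Prf1), the pore-forming protein, was higher in both (0.56 and 0.15). Gzmb and Gzmk, granule proteases, were at the floor in all 4 samples. A difference seen in 1 pair has no replicate check. One seen in both pairs has none within a subset, since each node gave 1 sample per subset. Whether the CD4 and CD8 samples of a node came from the same mice is not given. Differences between mice or preparations cannot be told apart from those between nodes.

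**Figure D5:**
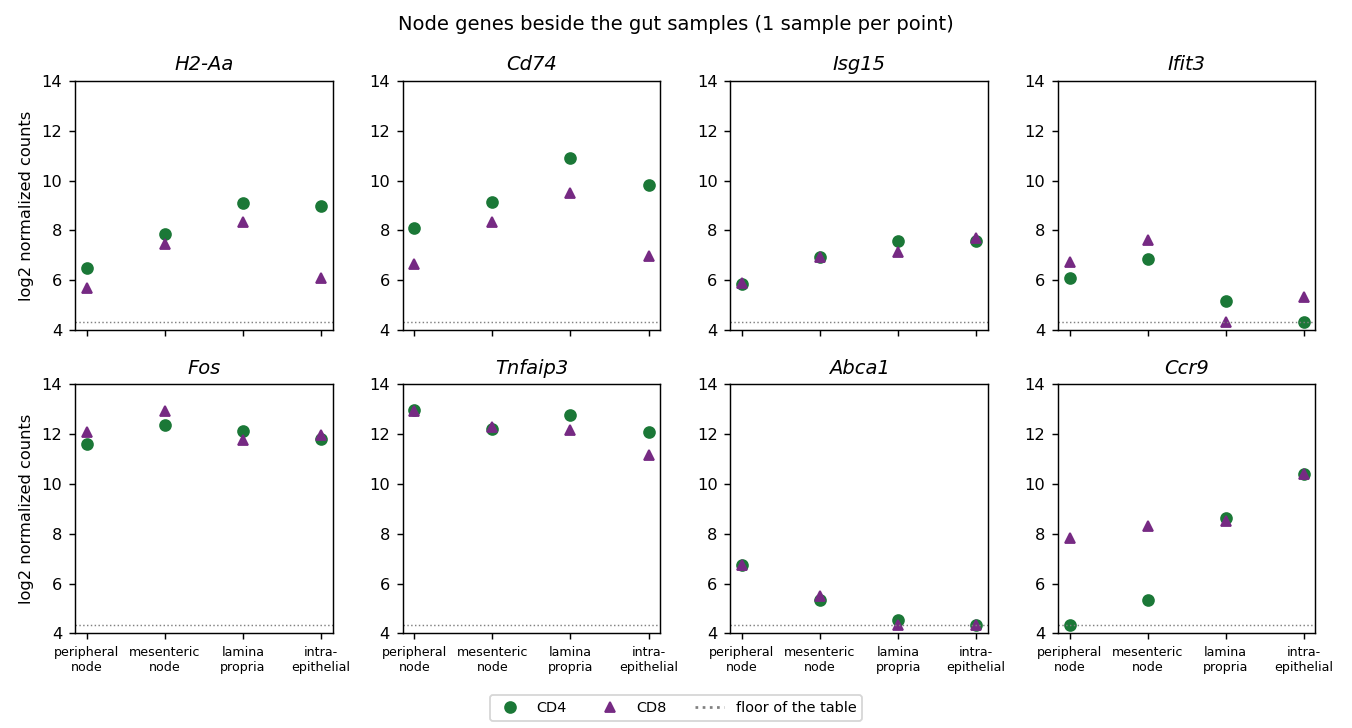
Log2 normalized counts (vertical axis) of 8 genes in the 4 node samples and, beside them, the 4 gut samples, with 1 mark per sample (circle CD4, triangle CD8) and the floor at 4.32 dotted. Abca1 is 6.76 and 6.73 in the peripheral samples and listed at 4.32 to 4.53 in the gut samples, and Ccr9 is highest in the intraepithelial samples.

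The gut samples were set beside the nodes as values, since the same node samples would enter both comparisons. Their limits differ, with a lowest listed value above the floor of 6.30 in intraepithelial CD4, 5.05 in intraepithelial CD8, 5.59 in lamina propria CD8 and 4.34 in lamina propria CD4. Ccr9 was 8.62 (CD4) and 8.52 (CD8) in the lamina propria and 10.41 and 10.42 in the intraepithelial samples. Isg15 was 7.56 and 7.13 in the lamina propria and 7.56 and 7.71 in the intraepithelial samples. Ifit3 was 5.17 in CD4 and at the floor in CD8 of the lamina propria, and at the floor in CD4 and 5.32 in CD8 of the epithelium. Oas2 was 5.58 and 5.79 in the lamina propria and at the floor in both intraepithelial samples. Abca1 was 4.53 in lamina propria CD4 and at the floor in the other 3 gut samples shown. H2-Aa was 9.11 and 8.33 in the lamina propria, and 8.99 and 6.09 in the intraepithelial samples, where CD8 lay between the peripheral and mesenteric CD8 values. Tnfaip3 was 12.76 and 12.15 in the lamina propria and 12.09 and 11.15 in the intraepithelial samples. Fos was 11.76 to 12.13 in the gut samples, within the range of the node samples. In a limma fit of all 8 CD4 and CD8 samples, 0 of 396 genes were called between the nodes (smallest adjusted p = 0.767), and 19 had an unadjusted p under 0.05.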

How the data were processed

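RNA of T cells had been hybridised with biotinylated capture and barcoded reporter probes after column isolation, per the labels' protocols. The authors deposited log2 values of normalized counts for 770 genes, with 2 decimals and a floor of 4.32. For the instrument, scaling and floor rule nothing is stated in those labels, and the depth of the node samples is unknown, so no count test was run. The 396 genes that exceeded the floor in 2 or more of 4 node samples were tested with limma 3.58.1 in R 4.3.3 (lmFit, eBayes with trend, terms for node and subset), two-sided, with Benjamini-Hochberg adjustment over all genes and a threshold of 0.05. The residual has 1 degree of freedom and the prior 1.44. With 1 sample per tissue and subset, the gap between the subset pairs is the only spread measured for a gene. The fit combines it with a prior drawn from all genes tested, so SEs and p-values rest on both. The script was tested on simulated data.

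Named genes were the 3 lineage genes, the 10 genes per direction with the largest smaller pair difference, up to 4 members per list with the largest difference, up to 5 genes per direction with opposite pairs, and genes at the floor in 1 node. Genes named beyond this rule, mostly further list members, were chosen after their values were seen. The 24 lists and the members were chosen with earlier results of these data known, and the promoter motifs and the marker-free count after seeing them. Of the names, 754 matched a RefSeq symbol (GRCm38.p6), 8 a synonym and 8 neither. Alternatives were no subset term, 8 samples, no trend, 2 centrings, 3 filters or floors, no housekeeping genes, and single pairs. Tables and figures used Python 3.11.15, numpy 2.4.6, pandas 2.3.3 and matplotlib 3.10.9. Some genes are not reported here.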

Additional observations from a re-analysis of the deposited data

Results flagged for a closer look

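In 10 genes the mesenteric minus peripheral difference had opposite signs in the CD4 and the CD8 pair, with a size of at least 0.2 log2 in each. With 1 sample per tissue and subset, none of these contrasts was tested. The CD8 minus CD4 contrast of the 2 differences was positive, with the mesenteric sample higher in CD8 and lower in CD4, for Tnfsf14 (1.06), Tnfrsf4 (1.02), Il10ra (0.96), Itgae (0.92), Cklf (0.85), Mx2 (0.74), Cd81 (0.65) and Mavs (0.48). It was negative for Myd88 (-0.65) and Prkcd (-0.49). Tnfsf14 (LIGHT), a TNF family ligand, was 5.27 in mesenteric and 5.82 in peripheral CD4, and 6.75 and 6.24 in CD8. Myd88, the adaptor of Toll-like receptors, was 7.04 and 6.74 in CD4 and 6.69 and 7.04 in CD8. Il10ra and Cd81 were at the floor in peripheral CD8, and Mx2 in mesenteric CD4. In all, 91 of 396 genes had opposite signs at any size.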

How the results depend on the processing

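The limma count was 0 in the deposited scaling, without a subset term, with 8 samples, without a trend, without a filter, above the floor in all 4 samples, with values under 6 raised to 6, and without housekeeping genes (smallest adjusted p 0.0958 to 0.767). Median centring gave 33 calls (15 higher, 18 lower) and housekeeping centring 68 (30 and 38), of which 21 and 27 were among the 28 size-rule genes. The prior of the fit had 1.44 degrees of freedom in the deposited scaling, 4.69 with median centring and 15.18 with housekeeping centring. The cause of the change in calls was not tested. The size-rule count of 28 (16 higher, 12 lower) was 15 (9 and 6) with the raised floor, which removes differences below 6, 6 (5 and 1) at 1 log2, and 20 (8 and 12) without marker genes of other cells, an alternative added after seeing the data. A single pair gave 59 (30 and 29, without the CD4 pair) and 66 (34 and 32, without the CD8 pair). The centrings kept all 28, and the interferon list had 24 genes higher and 1 lower in both pairs under either centring. The gene gained, Ifi44, was at the floor in both CD8 samples, and the centrings only shifted those floor values apart. The class II count higher in both pairs was 3 in place of 6 where genes had to exceed the floor in all 4 samples. Of 114 named genes, 3 changed sign under alternatives that keep both pairs: Cd4 and Stat6, near 0, became 0.005 and 0.01 with median and 0.006 and 0.011 with housekeeping centring, and Tnfsf14 became 0.255 with the raised floor. A single pair had the opposite sign to the mean of both in 13 named genes. Without the CD4 pair these were Tnfsf14 (0.51), Il10ra (0.38), Itgae (0.24), Cxcr6 (0.11), H2-M3 (0.09), Ccl5 (-0.10), F2rl1 (-0.16), Il6st (-0.19) and Prkcd (-0.23), and without the CD8 pair Myd88 (0.30), Stat6 (0.08), Cxcl10 (-0.14) and Cklf (-0.24). The fit pairs the samples by subset, and without that term it made 0 calls.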
